A study of Mus musculus with 15 samples.

Results

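The genes that dipped at postnatal day 4 (P4) were 44 of the 7826 genes that reached a mean of at least 10 CPM at both P0 and P21, among 38561 genes in the files. CPM is a gene's count scaled to 1000000 counts on genes in its library. A gene was taken when its highest value in the 3 P4 libraries lay below its lowest value in the 12 other libraries, so the dip itself is how the genes were chosen and is described here without a test. The libraries came from laser-captured Purkinje cells (PCs) of untreated mice of the strain that the labels spell C56/BL6. Each of the 5 ages (P0, P4, P8, P14, P21) had 3 biological replicates. Per the study's methods the mice were male, and P4 to P21 samples were pools of individually cut PC soma, whereas P0 samples were cut as clusters of PCs, so that age and manner of capture cannot be told apart at P0. Total counts on genes ranged from 3409371 to 7814951 per library. In such bulk samples fewer cells of a type and less RNA per cell cannot be told apart.

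Genes of this kind also arise by chance. If every order of the 15 libraries were equally likely, 1 gene in 455 would have all its P4 libraries lowest, which gives about 30 genes (31.4) over the 14293 genes with enough counts for testing and 17.2 over the 7826 genes that met the CPM minimum. The 44 genes were 0.562% of those 7826, and which of them arose by chance cannot be read from their values. The same rule for the other time points found more genes at the ends of the series: 272 (3.48%) were lowest at P0 and 376 (4.80%) lowest at P21, and 302 (3.86%) were highest at P0 and 226 (2.89%) highest at P21. Between the ends, 13 genes (0.166%) were lowest at P8 and 32 (0.409%) lowest at P14. The highest libraries were those of P4 in 61 genes (0.779%), of P8 in 43 (0.549%) and of P14 in 46 (0.588%). These counts hold for CPM by total counts and differences between them were not tested. The dip at P4 alone was also counted under other scalings, with 60 genes under scaling by the trimmed mean of M values (TMM) and 64 under DESeq2 size factors.

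**Figure D1:**
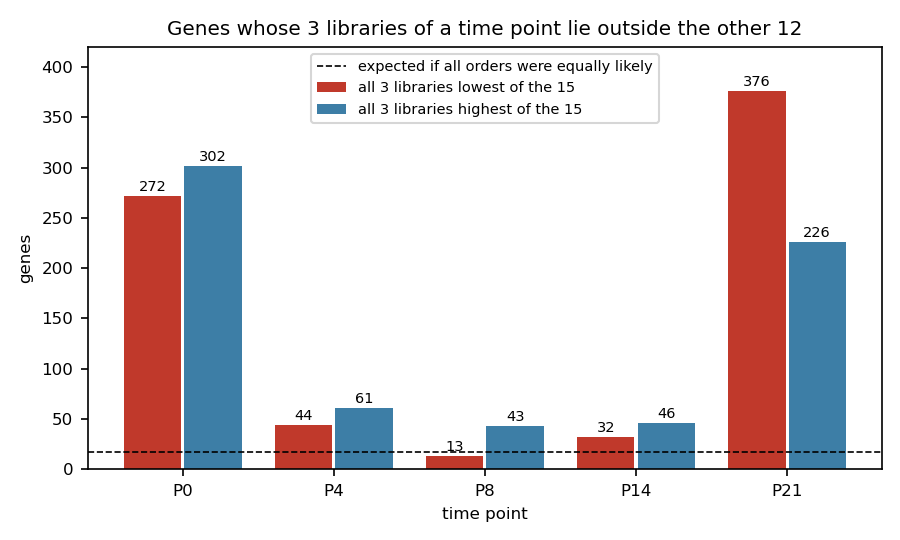
Number of genes (vertical axis) whose 3 libraries of a time point (horizontal axis) were all lower (red) or all higher (blue) than the 12 other libraries, among 7826 genes, with the dashed line at the 17.2 genes that equally likely orders would give. P4 had 44 such genes at the low side, above the 13 of P8 and the 32 of P14 and below the 272 of P0 and the 376 of P21.

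PCs carry the whole output of the cerebellar cortex. In the first postnatal weeks of the mouse they gather into a single layer, withdraw their early neurites and grow a planar dendritic tree. They also lose surplus climbing fibre inputs and gain parallel fibre synapses. Nuclear receptors of the ROR family, kinases of the protein kinase C family, cell adhesion molecules and the submembrane skeleton all take part in these steps. Genes of each kind, by family only, were among the 44, and the part of these members in the steps was not tested. The genes are grouped below by the known role of their product, a grouping made after the values were seen.

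The rule left a wide spread of depths. The ratio of the lowest other library to the highest P4 library had a median of 1.15 and ran from 1.02 to 3.36, and it reached 1.1 for 30 genes, 1.5 for 5 and 2 for 2. The genes just inside were Caskin1 (1.02), Gas6 (1.03), Ubxn4 (1.04) and Gbf1 (1.04), and those just outside were Zfc3h1 (0.998), Snapc3 (0.998), Me1 (0.997) and Nrd1 (0.996), so the genes on both sides of the limit had nearly the same values. On means, the average of the P0 and P8 means exceeded the P4 mean by a median of 2.30-fold, at least 2-fold in 27 genes, 3-fold in 19 and 5-fold in 10, with the highest value for Prkcd (12.98-fold). For 16 of the genes a P4 library held fewer than 20 counts, and for 6 it held none, so that their depth of dip rests on few reads. A count of 0 allows up to 3 counts, or 0.384 to 0.788 CPM in the P4 libraries.

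**Figure D2:**
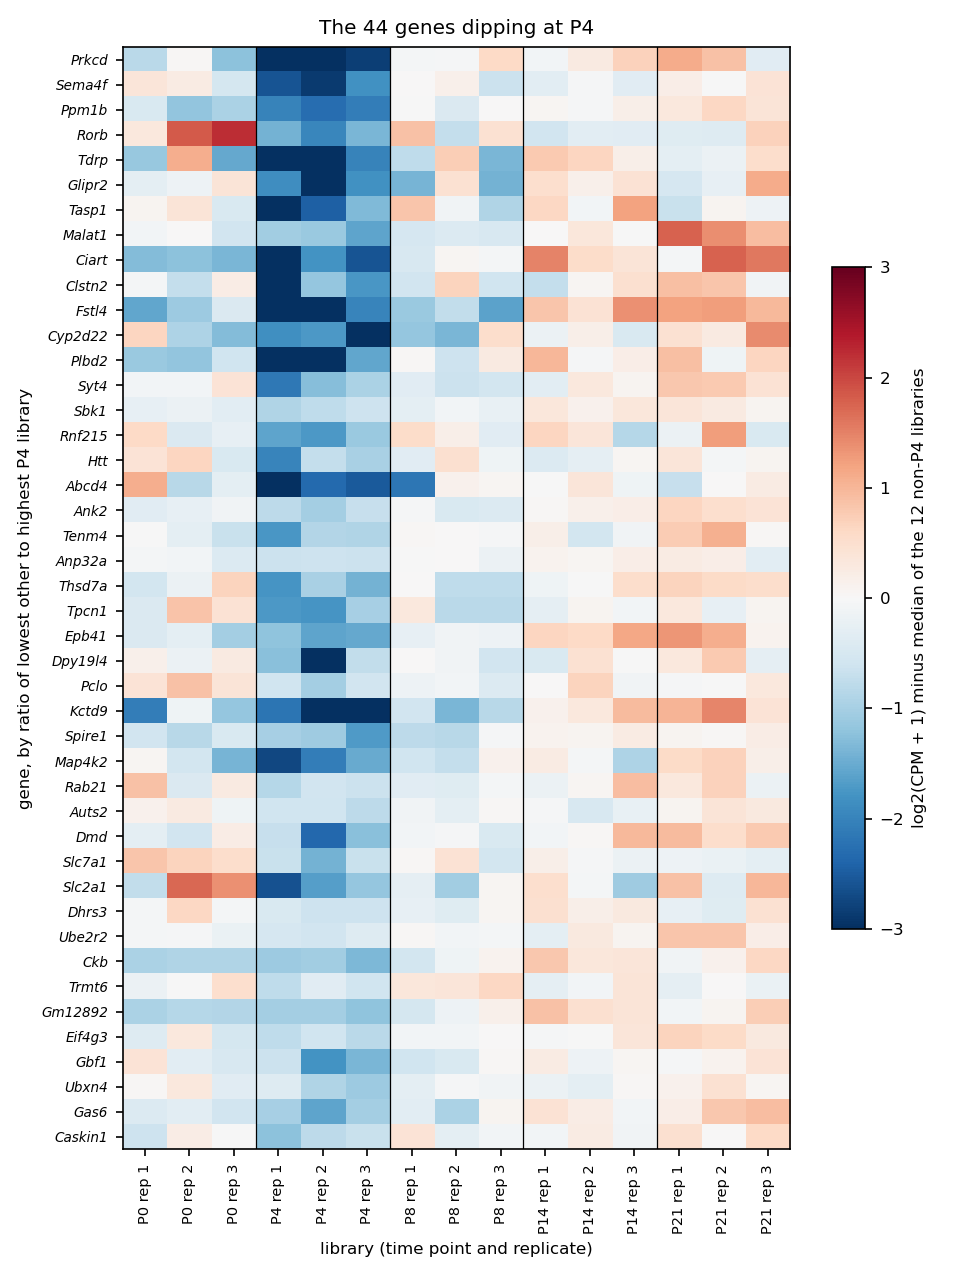
The 44 genes (rows, ordered from the largest to the smallest ratio of lowest other to highest P4 library) in the 15 libraries (columns), coloured by log2(CPM + 1) minus the median of the 12 libraries of other time points, with the colour limited to 3 units on either side of 0. The P4 columns are the lowest of each row by the choice of genes, from deep blue at Prkcd to pale blue at Caskin1, and the P21 columns are the reddest in many rows.

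The sequence upstream of the 4 genes with the largest ratios and of Ciart is shown because their depth or, for Ciart, its known control through E-boxes makes the promoter worth seeing beside the values. Each run is the 250 bases before the RefSeq gene start on GRCm38.p6, 5′ to 3′ on the gene's strand, and capitals mark every base covered by one of 12 motifs searched on both strands. These lie at chr14:30626209-30626458 (minus strand, Prkcd), chr6:82939770-82940019 (minus, Sema4f), chr17:84956491-84956740 (plus, Ppm1b), chr19:19111197-19111446 (minus, Rorb) and chr3:95882229-95882478 (minus, Ciart).
Prkcd: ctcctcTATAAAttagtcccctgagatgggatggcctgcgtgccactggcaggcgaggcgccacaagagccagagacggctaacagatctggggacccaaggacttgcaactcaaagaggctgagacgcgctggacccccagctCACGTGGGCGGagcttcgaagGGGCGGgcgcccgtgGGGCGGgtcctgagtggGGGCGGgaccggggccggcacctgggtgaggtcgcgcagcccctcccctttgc
Sema4f: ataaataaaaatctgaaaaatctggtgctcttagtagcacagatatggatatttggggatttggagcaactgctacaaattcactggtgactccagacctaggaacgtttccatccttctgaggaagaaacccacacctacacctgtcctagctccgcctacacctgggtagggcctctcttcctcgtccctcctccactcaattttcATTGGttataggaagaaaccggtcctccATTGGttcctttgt
Ppm1b: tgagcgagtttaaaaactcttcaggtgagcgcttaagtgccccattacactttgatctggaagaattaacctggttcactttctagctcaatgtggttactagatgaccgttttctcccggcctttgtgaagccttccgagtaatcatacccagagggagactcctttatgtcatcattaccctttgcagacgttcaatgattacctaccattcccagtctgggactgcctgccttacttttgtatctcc
Rorb: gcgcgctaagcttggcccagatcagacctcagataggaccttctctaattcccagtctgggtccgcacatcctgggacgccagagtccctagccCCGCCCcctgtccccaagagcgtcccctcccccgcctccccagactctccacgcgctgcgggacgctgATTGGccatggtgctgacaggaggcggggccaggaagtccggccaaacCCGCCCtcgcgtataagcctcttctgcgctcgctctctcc
Ciart: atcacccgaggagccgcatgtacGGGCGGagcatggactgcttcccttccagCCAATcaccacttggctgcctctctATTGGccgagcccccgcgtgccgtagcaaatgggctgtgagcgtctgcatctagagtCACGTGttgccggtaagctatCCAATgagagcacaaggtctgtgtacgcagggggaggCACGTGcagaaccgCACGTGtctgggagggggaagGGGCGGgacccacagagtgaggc

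The stretch before Ciart held 3 E-boxes (CACGTG), 2 GC boxes (GGGCGG) and 3 CCAAT boxes (CCAAT). That before Prkcd held 1 E-box, 4 GC boxes, of which 1 shares a base with the E-box, and a TATA box (TATAAA). Rorb had 2 GC boxes and 1 CCAAT box, Sema4f had 2 CCAAT boxes, and Ppm1b had none of the 12 motifs. Of the 44 genes, 29 were found by symbol in the promoter table. E-boxes were present before 4 of the 29 (Ciart, Prkcd, Rab21 and Tasp1; 13.8%), against 6.04% of all 27025 promoters and 9.17% of the promoters of the 7826 genes. The cAMP response element TGACGTCA was present before another 4 (Clstn2, Epb41, Fstl4 and Htt; 13.8%), against 1.60% of all and 3.07% of the 7826 genes' promoters. TATA boxes were found before Ank2, Ckb, Dmd and Prkcd (13.8%, against 13.0% and 5.44%), and AP-1 sites (TGANTCA) before Dmd and Slc7a1 (6.90%, against 6.85% and 3.27%). GC boxes (55.2%) and CCAAT boxes (41.4%) were near their shares before the 7826 genes (62.4% and 36.5%), as was the median GC content (63.2% against 60.8%), while over all promoters the shares were 33.0% and 34.5%. An ETS site (CCGGAAG) was found before Tasp1 (3.45%, against 7.07% of all and 15.6% of the 7826 genes' promoters) and a heat shock element core (GAANNTTC) before Gas6 (3.45%, against 6.79% and 4.59%). The NRF1 core GCGCATGC, the YY1 core AAGATGG, the nuclear receptor element AGGTCA and the ATF4 composite ATTGCATCA were found before none of the 29, against 2.31%, 4.51%, 13.8% and 0.185% of all promoters and 5.51%, 4.59%, 9.17% and 0.0822% of those of the 7826 genes. These counts describe letters in short windows and were not tested.

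Among signalling enzymes, the dip was deepest for Prkcd, which encodes protein kinase C delta, a diacylglycerol-activated kinase that needs no calcium. Prkcd stood at 26.9, 49.03 and 19.96 CPM at P0, 2.102, 2.05 and 5.94 at P4, 45.8, 46.9 and 73.3 at P8, 45.5, 58.03 and 78.1 at P14 and 105, 88.7 and 37.8 at P21. The P4 libraries held 8, 16 and 32 counts, and every other library had at least 3.36 times the CPM of the highest of them. Ppm1b encodes a metal-dependent serine/threonine phosphatase of the PP2C family. At P4 its CPM were 22.6, 18.3 and 21.4, after 67.2, 40.3 and 47.4 at P0 and before 92.5, 68.5 and 93.4 at P8, 97.5, 90.9 and 106 at P14 and 116, 145 and 122 at P21. Its P4 values were close to each other (20.8 ± 2.21 CPM, SD, n = 3), and the ratio to the lowest other library, a P0 library, was 1.78. Sbk1, a serine/threonine kinase first described in brain, was one of the most abundant of the genes by CPM. The libraries gave 511, 541 and 491 CPM at P0, 325, 358 and 397 at P4, 493, 573 and 522 at P8, 766, 667 and 776 at P14 and 781, 739 and 646 at P21. Its dip was shallow in fold but narrow in spread, as the P4 mean was 360.3 ± 35.96 CPM (SD, n = 3) and the lowest other library exceeded the highest P4 library 1.24-fold. Map4k2, a kinase upstream of the JNK pathway, had 2.89 to 7.99 CPM at P4 and 8.85 to 40.5 elsewhere, with 11 counts in its lowest P4 library.

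Nuclear factors were led by Rorb, the beta member of the ROR nuclear receptors, whose relative Rora is required for PC maturation. Rorb stood at 34.6, 101 and 133 CPM at P0, 9.72, 6.398 and 10.03 at P4, 51.6, 16.6 and 38.4 at P8, 18.2, 22.3 and 21.5 at P14 and 21.4, 21.1 and 45.4 at P21. P0 was its highest time point and the spread there was wide, while all P8 to P21 libraries lay above P4 but overlapped each other. Ciart encodes a repressor of the CLOCK and BMAL1 complex of the circadian clock, which acts through E-boxes. At P4 its CPM were 1.31, 10.7 and 5.76, after 15.4, 16.3 and 14.7 at P0 and before 28.01, 41.1 and 37.8 at P8, 113, 58.6 and 52.1 at P14 and 37.8, 136 and 120.5 at P21. P4 and P0 were its low time points, with the 3 P0 libraries within 2 CPM of each other, and the later libraries were all higher. Ciart was the only one of 9 clock genes above the CPM minimum to be taken, where 0.562% of all 7826 genes were. Of these 9, 5 had a P4 mean below the average of the P0 and P8 means, against 54.1% of all 7826 genes. Ciart is itself one of the 5 by the choice of genes. In edgeR's test, described below, 4 of 16 clock genes with enough counts rose from P0 to P8 (25%, against 5.61% of all genes tested). None fell (1.74% of all). Ciart was not among the 4 (log2 fold change 1.31, SE 0.58, adjusted p = 0.212). From P8 to P21 none of the 16 passed either way (3.64% of all rose and 4.61% fell). Time of day at tissue collection was not given in the sources used here.

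Malat1, a long non-coding RNA retained in nuclear speckles, was the most abundant of the genes after Ckb. The libraries gave 1929, 2058 and 1366 CPM at P0, 991, 949 and 679 at P4, 1452, 1537 and 1474 at P8, 2074, 2593 and 2028 at P14 and 6959, 5356 and 3907 at P21. The P0 and P8 libraries overlapped at between 1366 and 2058 CPM, all P4 libraries were at 991 CPM or less, and P21 was the highest time point. It belongs to a list of snoRNA and snRNA hosts and other long non-coding RNAs in which 9 of the 10 genes above the CPM minimum had a P4 mean below the average of P0 and P8, against 54.1% of all 7826 genes, although Malat1 alone met the rule. Malat1 is itself one of the 9, where the choice of genes fixed its low P4 mean. Of 16 genes of the list tested with edgeR, 2 rose, Malat1 among them (12.5%, against 3.64% of all genes), and 1 fell (6.25%, against 4.61%) from P8 to P21. Auts2, a chromatin and cytoskeleton regulator linked to autism, was also abundant. Auts2 stood at 378, 419 and 319 CPM at P0, 228, 228 and 202 at P4, 323, 282 and 357 at P8, 337, 250.2 and 298 at P14 and 368, 454 and 423 at P21. Its lowest other library, at P14, was 1.097 times the highest P4 library.

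Anp32a, an acidic nuclear protein of the histone acetylation inhibitor complex, had P4 libraries that hardly differed. At P4 its CPM were 112, 113 and 112, after 169, 166 and 131 at P0 and before 174, 176 and 155 at P8, 187, 183 and 199.7 at P14 and 209, 201 and 140.0 at P21. The P4 libraries lay below all others, the nearest of which was at P0. Htt encodes huntingtin, a large scaffold of vesicle transport and transcription. The libraries gave 52.7, 62.6 and 28.6 CPM at P0, 9.197, 23.5 and 19.7 at P4, 30.8, 55.2 and 36.3 at P8, 29.3, 32.7 and 41.3 at P14 and 50.7, 37.8 and 41.7 at P21. The P4 libraries spread more than 2-fold among themselves, and the libraries from P0 and from P8 to P21 overlapped fully. Tasp1, the protease that cleaves the KMT2A histone methyltransferase, had 0.788 to 5.57 CPM at P4 and 7.86 to 36.99 elsewhere, with 3, 16 and 30 counts at P4.

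The 7 cell surface, secreted and vesicle proteins came next. Sema4f, a transmembrane semaphorin of axon and glial signalling, had the second largest ratio of all. Sema4f stood at 31.1, 28.7 and 16.3 CPM at P0, 3.15, 2.43 and 6.13 at P4, 24.4, 26.8 and 14.97 at P8, 19.1, 23.5 and 18.7 at P14 and 27.9, 23.8 and 32.3 at P21. Outside P4 the level was nearly flat, as the means of the other time points lay between 20.4 and 27.96 CPM against 3.905 at P4. Clstn2 encodes a calsyntenin, a cadherin-related protein of the postsynaptic membrane. At P4 its CPM were 0.526, 29.2 and 19.1, after 62.9, 40.1 and 77.4 at P0 and before 44.3, 105 and 43.6 at P8, 39.6, 69.3 and 93.01 at P14 and 125, 119 and 61.7 at P21. One P4 library held 2 counts and the others 228 and 103, so the depth of its dip differed between replicates. Fstl4 encodes a follistatin-related protein. The libraries gave 13.4, 18.9 and 30.6 CPM at P0, 0, 0.256 and 9.84 at P4, 18.7, 24.4 and 13.1 at P8, 74.9, 56.8 and 110.1 at P14 and 98.3, 102 and 82.6 at P21. Its P4 counts were 0, 2 and 53, and the P14 and P21 libraries were all higher than those at P0 and P8.

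Tenm4, a teneurin that pairs with partners across the synapse, dipped less deeply. Tenm4 stood at 72.1, 59.1 and 45.4 CPM at P0, 21.02, 38.9 and 38.3 at P4, 75.1, 73.7 and 70.7 at P8, 81.97, 49.1 and 67.2 at P14 and 124, 153 and 74.4 at P21. One P4 library was lower than the others, the P8 libraries lay close together, and P14 overlapped both P0 and P8. Syt4, a synaptotagmin of dense-core vesicles, was among the more abundant genes. At P4 its CPM were 57.8, 106 and 134, after 246, 246 and 345 at P0 and before 205, 166 and 176 at P8, 208, 325 and 274 at P14 and 456, 451 and 354 at P21. All 3 P8 libraries were also below those at P0 and at P21, as they were for Pclo but for no other of the 44, although for neither gene did the change from P0 to P8 pass the test (Syt4 -0.51, SE 0.27, adjusted p = 0.303). Thsd7a, a transmembrane protein with thrombospondin domains, had 50.98 to 90.5 CPM at P4 and 104 to 284 elsewhere, and Gas6, the ligand of the TAM receptor tyrosine kinases, had 17.02 to 25.8 CPM at P4 and 26.6 to 102 elsewhere.

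**Figure D3:**
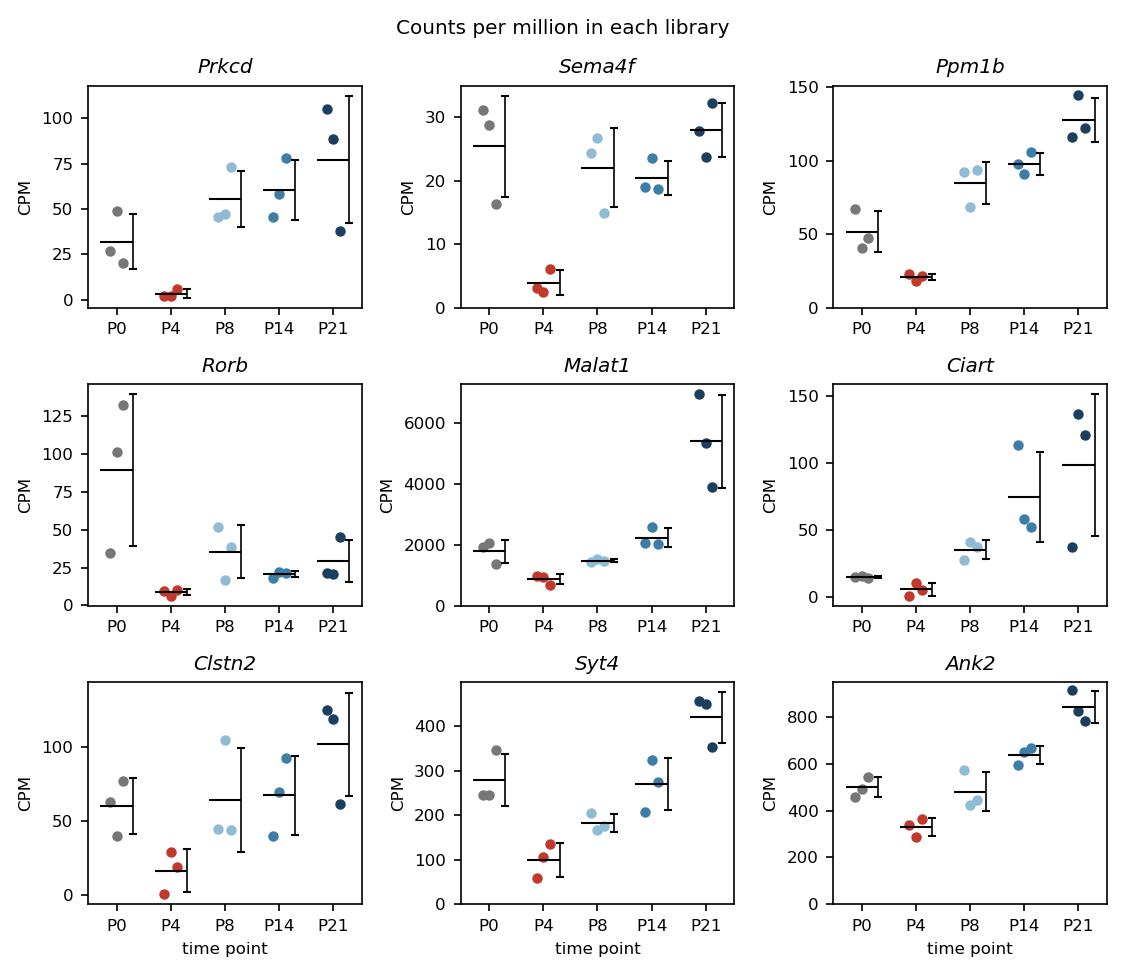
CPM (vertical axes, each with its own scale) of 9 of the genes in each library by time point, with dots for the 3 replicates, horizontal lines for means and bars for the SD. The red P4 dots lie under all others in each panel, Rorb is highest at P0, and Sema4f is nearly level outside P4. All panels but that of Rorb have their highest mean at P21.

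The membrane skeleton and synaptic scaffolds were represented by 6 genes. Ank2 encodes ankyrin-B, which ties membrane proteins to spectrin. The libraries gave 460.2, 494 and 546 CPM at P0, 340.0, 289 and 364 at P4, 576, 426 and 444 at P8, 597, 653 and 669.7 at P14 and 918, 826 and 785 at P21. P0 and P8 were alike in range, P4 was lower than both, and the P14 and P21 libraries exceeded all P0, P4 and P8 libraries. Epb41, which links spectrin to actin, had 40.3 to 53.1 CPM at P4 and 60.3 to 309 elsewhere. Dmd, which encodes dystrophin, found at inhibitory synapses of PCs, had 16.4 to 54.1 CPM at P4 and 58.8 to 173 elsewhere, and its P4 libraries spread more than 3-fold. Pclo, the active zone scaffold piccolo, had 66.2 to 91.4 CPM at P4 and 103 to 253 elsewhere, and Caskin1, a scaffold that binds CASK, had 28.4 to 42.9 CPM at P4 and 43.9 to 104 elsewhere. Spire1, a nucleator of actin filaments, had 41.98 to 68.8 CPM at P4 and 76.4 to 163 elsewhere. These 6 genes differed in depth, with the average of P0 and P8 over P4 between 1.48-fold for Ank2 and 2.18-fold for Dmd.

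Of the lysosomal and trafficking genes, Plbd2, a lysosomal phospholipase B-like protein, had the largest ratio. Plbd2 stood at 25.4, 24.1 and 36.8 CPM at P0, 5.52, 0.512 and 18.4 at P4, 58.1, 35.99 and 67.9 at P8, 114, 54.6 and 64.6 at P14 and 106, 51.1 and 88.4 at P21. Its P4 counts were 21, 4 and 99, and all P8 to P21 libraries but P8 replicate 2 were higher than those at P0. Tpcn1, an endolysosomal cation channel, had 4.35 to 8.17 CPM at P4 and 9.35 to 31.6 elsewhere, and Abcd4, a lysosomal transporter needed for vitamin B12 release, had 0 to 1.41 CPM at P4 and 1.697 to 24.7 elsewhere, of which the lowest other library held 8 counts. Rab21, a GTPase of early endosomes, had 16.3 to 19.8 CPM at P4 and 21.8 to 57.6 elsewhere. Gbf1, an exchange factor for ARF GTPases at the Golgi, had 30.7 to 68.3 CPM at P4 and 70.9 to 144 elsewhere, and Ubxn4, an adaptor of protein degradation at the endoplasmic reticulum, had 71.5 to 117 CPM at P4 and 121 to 211 elsewhere. After TMM scaling instead of total counts, the highest P4 library of Rab21 and of Ubxn4 was no longer below the lowest other one. A list of 29 lysosomal genes above the CPM minimum held none of the 44. With 0.562% of all 7826 genes meeting the rule, that absence does not set the list apart. Of these 29, 8 (27.6%) had a P4 mean below the average of P0 and P8, against 54.1% of all 7826 genes.

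In energy metabolism and transport, Ckb, the brain-type creatine kinase, was the most abundant of the genes. At P4 its CPM were 2073, 2161 and 1742, after 2286, 2385 and 2377 at P0 and before 3036, 4081 and 4773 at P8, 7758, 5618 and 5667 at P14 and 4122, 4878 and 6874 at P21. The P4 libraries lay only just under those of P0, and all later libraries were higher. The mean was 3963 CPM at P8, highest at P14 (6348 CPM) and 5291 CPM at P21. In edgeR's test P21 against P8 did not pass (log2 fold change 0.66, SE 0.20, adjusted p = 0.0595). The pattern was thus a low level at P0 and P4 followed by a higher one. Gm12892, annotated as a processed pseudogene on chromosome 4, matches a Ckb transcript at 1089 of its 1146 bases (95.0%, aligned without gaps), so the assignment of reads between them is uncertain. The libraries gave 222, 237 and 232 CPM at P0, 209, 211 and 184 at P4, 296, 385 and 474 at P8, 788, 593 and 556 at P14 and 404, 451 and 717 at P21. It stood at between 9.25% and 10.6% of the Ckb count in every library, so the 2 rows are not separate observations. Under TMM or DESeq2 size factors neither gene had its P4 libraries below all others.

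Slc2a1, the glucose transporter of blood vessels and glia, had 2.89 to 9.66 CPM at P4 and 10.4 to 77.6 elsewhere, and its P0 libraries ranged from 13.2 to 77.6 CPM. Vascular markers summed to 72.0 to 233 CPM at P4, within the 42.5 to 276 CPM of the other libraries, and the part of vessels in the level of Slc2a1 was not tested. Slc7a1, a carrier of cationic amino acids, had 13.6 to 23.6 CPM at P4 and 25.6 to 68.7 elsewhere, with its highest mean at P0. Cyp2d22, a cytochrome P450, had 0 to 5.502 CPM at P4 and 7.24 to 55.96 elsewhere, and its P4 counts were 19, 43 and 0. Dhrs3, which reduces retinaldehyde, had 93.8 to 105 CPM at P4 and 113 to 226 elsewhere. The solute carrier list held 2 genes with the dip, Slc2a1 and Slc7a1, among 128 above the CPM minimum. Over all genes above that minimum the share was 0.562%, and counts this small do not set the list apart. Of 243 genes of the list tested with edgeR, 14 rose (5.76%, against 3.64% of all genes) and 7 fell (2.88%, against 4.61%) from P8 to P21.

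The remaining genes act on protein and RNA turnover or are little known. Ube2r2, a ubiquitin-conjugating enzyme, had 73.96 to 84.7 CPM at P4 and 90.2 to 199 elsewhere, Rnf215, a RING domain protein, had 4.61 to 7.62 CPM at P4 and 9.34 to 43.2 elsewhere, and Kctd9, a BTB domain protein, had 1.49 to 4.99 CPM at P4 and 5.55 to 75.1 elsewhere. Rnf215 and Ube2r2 were the 2 genes with the dip among 173 of the ubiquitin list above the CPM minimum. The share over all genes above that minimum was 0.562%, and counts this small do not set the list apart. Of 242 genes of that list with enough counts for edgeR's test, which sets a lower limit, 8 rose (3.31%, against 3.64% of all genes) and 3 fell (1.24%, against 4.61%) from P8 to P21. Eif4g3, a scaffold of translation initiation, had 151 to 175 CPM at P4 and 183 to 417 elsewhere, and its P4 libraries were not all lowest under TMM or DESeq2 size factors. Trmt6, a subunit of a tRNA methyltransferase, had 19.97 to 26.9 CPM at P4 and 28.3 to 54.1 elsewhere. Tdrp had 0 to 2.79 CPM at P4 and 4.31 to 31.6 elsewhere, Glipr2, a Golgi-associated protein, had 0 to 3.53 CPM at P4 and 5.05 to 33.5 elsewhere, and Dpy19l4 had 0 to 10.2 CPM at P4 and 11.6 to 31.3 elsewhere. Each of these last 3 had a P4 library with no count.

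Many classes of genes had no member with the dip. None of the 44 belonged to the 80 cytosolic ribosomal proteins, 84 nuclear respiratory chain subunits, 45 proteasome subunits, 61 splicing factors, 60 chaperones, 31 voltage-gated channels, 17 cholesterol synthesis genes or 16 glycolysis genes above the CPM minimum. At the background of 0.562% such lists would hold less than 1 gene each, so an absence does not set them apart. Of the ribosomal proteins 27.5%, and of the respiratory chain subunits 26.2%, had a P4 mean below the average of P0 and P8, against 54.1% of all 7826 genes. The shares were 62.3% for splicing factors and 58.3% for 36 kinesins and dyneins.

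The comparison of P8 with P0 asks whether the genes returned to where they started. It leaves out the P4 libraries from the contrast, although the P0 and P8 libraries had to lie above P4 for a gene to be taken. In edgeR's quasi-likelihood test over 14293 genes, 802 genes (5.61%) rose from P0 to P8 and 249 (1.74%) fell at an adjusted p below 0.05. Over the 7826 genes above the CPM minimum, 548 rose and 188 fell, both larger shares than over all genes tested. Of the 44, which were drawn from those 7826, 2 rose (4.55%) and none fell. The 2 were Ckb and Gm12892, whose rows are not separate observations. At an unadjusted p below 0.05, 4 of the 44 rose and 2 fell. The median log2 fold change was 0.08 over the 44 and 0.00 over all genes tested, with 23 of 44 above 0. Ckb rose by a log2 fold change of 0.86 (SE 0.21, adjusted p = 0.0159) and Gm12892, its copy, by 0.85 (SE 0.23, adjusted p = 0.0322). Ppm1b (0.82, SE 0.25, adjusted p = 0.0617) and Pclo (-0.68, SE 0.24, adjusted p = 0.102) did not pass. The lowest values were those of Slc2a1 (-1.40, SE 0.67, adjusted p = 0.25) and Rorb (-1.23, SE 0.51, adjusted p = 0.184), and Prkcd gave 0.90, SE 0.48, adjusted p = 0.314. With SEs of this size a missing call does not show that P8 equalled P0. The DESeq2 Wald test called 4 of the 44 (3 higher and 1 lower), and edgeR called none without P0 replicate 3, P8 replicate 2 or P8 replicate 3, and 1 without P0 replicate 1, P0 replicate 2 or P4 replicate 1.

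The comparison of P21 with P8 follows the genes after P8. A gene that rises with age has more room to meet the rule than one that falls, because its late libraries lie above P4 in any case, so a rise here is partly fixed by the choice and is given as a description. Over all 14293 genes 520 (3.64%) rose and 659 (4.61%) fell, and over the 7826 genes above the CPM minimum 431 (5.51%) rose and 414 (5.29%) fell. Of the 44, 12 rose (27.3%) and none fell. The median log2 fold change was 0.83 over the 44, against -0.08 over all genes tested and 0.06 over the 7826, and 41 of 44 values were above 0. At an unadjusted p below 0.05, 22 rose and none fell.

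Malat1 had the smallest adjusted p among the 44, with a log2 fold change of 2.11 (SE 0.22, adjusted p = 2.05e-05). Ank2 rose by 1.06 (SE 0.15, adjusted p = 0.00031), Syt4 by 1.46 (SE 0.27, adjusted p = 0.00249) and Epb41 by 1.35 (SE 0.29, adjusted p = 0.00789). Among kinases, phosphatases and ubiquitin enzymes, Sbk1 rose by 0.70 (SE 0.15, adjusted p = 0.00729), Ppm1b by 0.84 (SE 0.25, adjusted p = 0.0483) and Ube2r2 by 0.94 (SE 0.22, adjusted p = 0.014). The surface and secreted proteins Thsd7a (1.31, SE 0.33, adjusted p = 0.0191) and Gas6 (1.29, SE 0.34, adjusted p = 0.0246) rose, as did Kctd9 (2.26, SE 0.60, adjusted p = 0.0273), Eif4g3 (0.82, SE 0.22, adjusted p = 0.0287) and Auts2 (0.62, SE 0.18, adjusted p = 0.0436). The largest value was that of Fstl4, which did not pass (2.58, SE 0.85, adjusted p = 0.0752), and Ciart did not pass either (1.72, SE 0.58, adjusted p = 0.0817). The 3 genes with values below 0 were Rorb (-0.027, SE 0.51, adjusted p = 0.99), Tasp1 (-0.084, SE 0.70, adjusted p = 0.977) and Trmt6 (-0.37, SE 0.35, adjusted p = 0.624). The count of 12 fell to 5 without P8 replicate 2 or without P21 replicate 2 and to 7 without replicate 1 of either time point, and the DESeq2 Wald test called 19. With each of the 15 libraries left out in turn, Malat1, Ank2, Syt4 and Sbk1 passed every time, whereas Ppm1b passed 3 times and Auts2 6 times, and neither of these passed without the filter on low counts (adjusted p = 0.104 and 0.0733 in edgeR's test) or with the replicate number as a block (0.0576 and 0.0668). The others passed 10 to 14 times, and of these only Kctd9 lost its call with the replicate block (adjusted p = 0.0527).

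**Figure D4:**
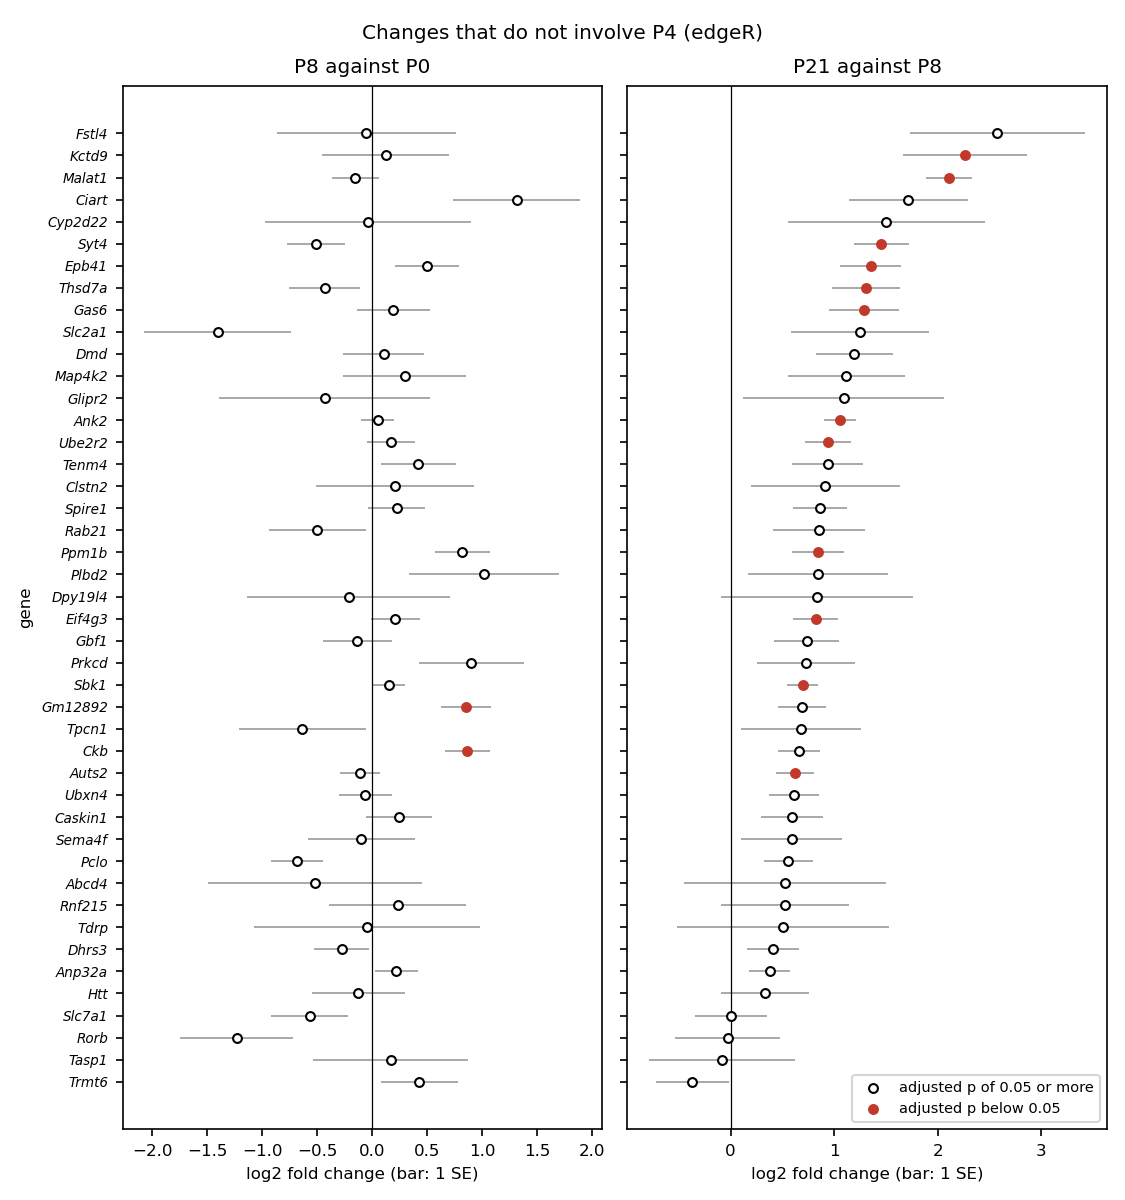
Log2 fold change of the 44 genes (rows, ordered by P21 against P8) in both contrasts that leave out P4, with bars of 1 SE from edgeR's fit and red dots for an adjusted p below 0.05. At left 2 genes are red and the values lie on both sides of 0, and at right 12 are red and 41 of 44 lie above 0.

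By time point of highest mean, 26 of the genes peaked at P21, 10 at P14, 7 at P0 and 1 at P8. The P21 mean exceeded the P0 mean in 33 genes and was lower in 11, by a median of 1.42-fold and a range from 0.327 to 6.35. The matching counts over all genes above the CPM minimum were not made. A gene that rises with age has more room to meet the rule, so these counts do not show late peaking as a trait of the genes. The lowest library outside P4 came from P0 in 21 genes, from P8 in 16, from P14 in 6 and from P21 in 1, so that in most cases the neighbouring time points set how deep the dip could be. The 44 genes summed to between 4880 and 5429 CPM in the P4 libraries, to 8037 to 9069 at P0, 8678 to 10548 at P8, 13479 to 15368 at P14 and 16775 to 17601 at P21. Malat1, Ckb and Gm12892 made up a large part of these sums, and without them the sums were 2108 to 2275 at P4, 3905 to 4390 at P0 and 3686 to 3895 at P8.

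The genes included several of great span. On GENCODE M21, 10 of the 44 (22.7%) spanned over 200 kb, against 6.25% of the 7826, among them Dmd at chrX:82948870-85206141, Auts2 at chr5:131437333-132543344, Tenm4 at chr7:96171246-96911093, Clstn2 at chr9:97444395-98033181 and Ank2 at chr3:126921612-127499350. The median span was 35399 bases against 25905, and the median summed exon length 5464 bases against 4800. By quartile of exon length, from short to long, the genes numbered 7, 11, 9 and 17. Genes highest at P4 numbered 10, 16, 19 and 15 in the same quartiles, genes lowest at P14 numbered 4, 7, 9 and 12, and genes lowest at P8 numbered 4, 4, 2 and 3. Over all genes of each quartile, the median log2 ratio of the average of P0 and P8 to P4 was -0.061, 0.051, 0.066 and 0.12. Counts on genes with over 6 kb of exon took 25.2% to 28.0% of the P4 libraries and 26.9% to 30.7% of the others, ranges that overlap and whose part in the dip was not tested. Of the 44, 42 were protein-coding. The 44 lay on 18 chromosomes, with 8 on chromosome 4, Gm12892 among them, and 6 on chromosome 5. The shares of the 7826 genes by chromosome and gene type were not counted, so these numbers show no clustering.

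**Figure D5:**
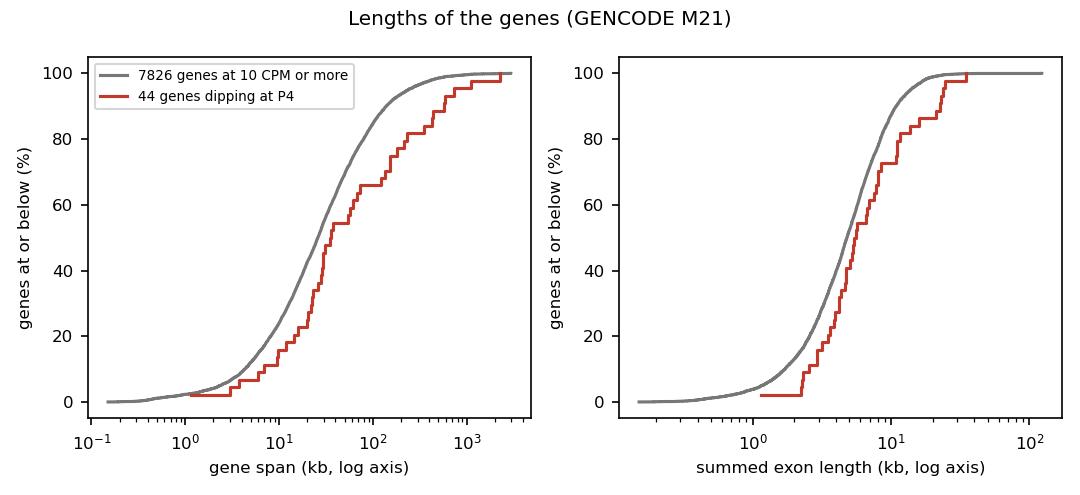
Cumulative share of genes (vertical axes, percent) by gene span and by summed exon length (horizontal axes, kb on a log scale) for the 44 genes (red) and the 7826 genes above the CPM minimum (grey). The red curves lie to the right of the grey ones over most of their length, with 22.7% of the 44 genes and 6.25% of the 7826 above 200 kb of span.

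The share of reads outside annotated features did not place P4 at either end. It was 20.1% to 21.2% at P4, 24.1% to 29.8% at P0 and 16.7% to 23.4% from P8 to P21. The 16 PC markers were all detected at P4 and summed to a mean of 8252 CPM at P0 and 16244 CPM at P4, which grew to 25128 CPM at P8 and 47327 CPM at P21 with no dip. Of the 10 cell type marker lists none had all its P4 sums below the other libraries, and none held one of the 44 genes. Erythroid markers came near, with 172 to 206 CPM at P4, 192 to 414 at P14 and 309 to 1116 at the other time points, and interneuron markers were highest at P4 (179 to 208 CPM, against 73.1 to 157 elsewhere). The part of these differences in the dip was not tested. The cDNA kit does not mark strand, so reads of overlapping antisense genes cannot be told apart. Exons of 13 of the 44 overlapped those of another gene. The partner reached 57.1 CPM for Caskin1 (Traf7, over 110 bases) and 10.1 CPM for Rnf215 (Ccdc157, over 50 bases), and at most 0.662 CPM for the other 11. With only each gene's partner of highest mean CPM measured, the longest overlap was 988 bases in Tenm4.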

How the data were processed

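RNA of laser-captured mouse PCs was read in 15 libraries, 3 per time point. The authors trimmed the reads with cutadapt 1.2.1, aligned them to GRCm38.p1 (mm10) with GSNAP and counted uniquely mapping reads per Ensembl gene with HTSeq 0.5.3p9, and the deposited values are whole-number counts without normalization. The annotation release used for counting is not given in the sources used here. Reads not fully within an annotated feature, or matching several copies of a gene, are lost by this counting. The 5 HTSeq tallies for reads without a gene were left out of library sizes (reads with no feature were 16.7% to 29.8% of the sum of gene, no-feature and ambiguous reads).

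CPM used summed counts on genes. Fold changes came from edgeR 4.0.16 in R 4.3.3 (glmQLFit and glmQLFTest, time point as a factor, all 15 libraries, TMM, filterByExpr, 14293 genes, Benjamini-Hochberg adjustment at 0.05), with a biological coefficient of variation of 0.705. The test was tested on simulated data for P8 against P0, with 13833 genes of which 200 were changed by a log2 fold change of 2, and recovered 113 with 3 false calls. The p-values measure the spread between these samples, which the labels do not trace to single mice. Same-numbered replicates did not deviate together (mean r = -0.0033 over 30 pairs, against 0.0017 over 60 pairs of different numbers). Positions and lengths came from GENCODE M21 on GRCm38, which held 7783 of the 7826 genes, and promoters from the RefSeq table of GRCm38.p6. Figures were drawn with matplotlib 3.10.9 in Python 3.11.15.

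The members and the lists were chosen with earlier results of these data known. Every gene was named, in full the 15 with the largest ratio among those with at least 10 CPM in their lowest other library and the 6 with the highest mean CPM. Alternatives covered the scaling, the CPM minimum, the filter, DESeq2 1.42.0, the fit without P4, the replicate block and each library left out in turn.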

Additional observations from a re-analysis of the deposited data

How the results depend on the processing

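The number of genes dipping at P4 was 44 by total counts, 60 by TMM (39 shared with the 44) and 64 by DESeq2 size factors (41 shared). A CPM minimum of 5 gave 51 genes, of 20 gave 33, and none gave 61. Leaving out 1 library gave 45 to 179 genes, with 179, 118 and 114 without P4 replicate 3, 1 and 2, and 77, 72 and 69 without P0 replicate 1, 2 and 3, and a rule over fewer libraries is easier to meet. The log2 ratio of lowest other to highest P4 library fell below 0 under TMM for Ckb (-0.085), Eif4g3 (-0.11), Gm12892 (-0.091), Rab21 (-0.045) and Ubxn4 (-0.012), and under DESeq2 size factors for Ckb (-0.021), Eif4g3 (-0.049) and Gm12892 (-0.028). The other 80 ratios stayed above 0.

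Of the 44, P8 against P0 called 2 genes by edgeR, 4 by the DESeq2 Wald test, 1 with the replicate block, and 0 to 2 with 1 library left out (0 without P0 replicate 3, P8 replicate 2 or P8 replicate 3, and 1 without P0 replicate 1, P0 replicate 2 or P4 replicate 1). P21 against P8 called 12, 19 by DESeq2, 14 with relative log scaling, 16 without the P4 libraries, 9 with the replicate block, and 5 to 13 with 1 library left out (5 without P8 replicate 2 or P21 replicate 2, 7 without P8 replicate 1 or P21 replicate 1, and 8 without P8 replicate 3). Samples of the same number share only the number. Of the fold changes named as called, 220 values under the alternatives kept call and direction, 60 lost the call and none changed direction. The cause of these changes was not tested. Depth limits the genes with fewer than 20 counts in a P4 library.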
